A study of Mus musculus with 5 samples.

Results

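DNA repair and damage checkpoint genes were examined in an RNA immunoprecipitation and microarray (RIP-chip) experiment on MKRN1, a makorin RING-domain zinc finger protein, in mouse embryonic stem cells. The members were 32 genes listed by symbol, each read from its brightest probe set in the platform annotation. They are 32 of 19937 genes with a probe set, all 32 lay above the level filter that kept 11502 genes, and none also sat on a probe set shared with another gene. They were sorted into homologous recombination (9 genes), checkpoint and damage signalling (8), base and nucleotide excision (5), the Fanconi anaemia pathway (4), end joining (3), mismatch repair (2) and postreplication repair (1).

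The cells were R1, a male line from the inner cell mass of a 129X1 x 129S1 blastocyst, kept without feeders in LIF and serum. All carried a G418-resistant, constitutively active pCAGGS construct, encoding either the FLAG tag alone (FLAG:Ctrl) or FLAG:MKRN1. Each of 5 groups was 1 array: the input RNA of either lysate, an anti-FLAG RIP of either lysate, and an IgG RIP of FLAG:MKRN1 lysate. Per the labels, the FLAG:Ctrl RIP and the IgG RIP record background recovery. Per the labels the lines are clones, and how many clones were used is not given in the sources used here.

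Homologous recombination repairs a double-strand break by copying the sister chromatid, whereas end joining seals the ends directly. The Fanconi pathway unlocks crosslinked strands, mismatch repair corrects replication errors, and excision repair replaces damaged bases or nucleotides. The kinases ATM and ATR sense breaks and stalled forks and signal through CHEK2 and CHEK1 to hold the cell cycle. Embryonic stem cells divide fast and express much of this machinery.

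Values are the authors' deposited log2 signals, and differences are log2 values of 1 array minus another. With no replicates there is no error on any value, no test was run, and differences are set against all genes above the level filter. Mkrn1 itself did not separate the lines, at 11.80 in the FLAG:Ctrl input and 11.71 in the FLAG:MKRN1 input, so the anti-FLAG RIP from that lysate is named the MKRN1-labelled RIP here and every direction depends on the label. All 8 stem cell markers (Pou5f1, Nanog and others) lay above the level filter of 5.76, with array medians from 11.22 to 11.43. Of 8 fibroblast feeder markers 4 did, with array medians from 5.45 to 5.85 and 5.74 in the MKRN1-labelled RIP, within that range. These medians hide single markers. Klf4 was at 8.82 in the FLAG:Ctrl input and 7.65 in the FLAG:MKRN1 input, while no other stem cell marker differed 2-fold between inputs. Thy1, the brightest feeder marker, was at 9.88 and 8.89 in the same order. The array of the MKRN1-labelled RIP had the narrowest spread, an SD of 2.19 over probe sets against 2.28 to 2.35 on the other 4.

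Repair and checkpoint RNAs were lower in the MKRN1-labelled RIP than on every other array for 25 of 32 members, a position held by 32.6% of all genes kept. Their median difference was -0.86 against FLAG:Ctrl and -0.88 against IgG, beside -0.03 and -0.0010 over all genes kept. In all, 27 members were below both control RIPs, as 44.4% of genes kept were, and 3 (Lig4, Xrcc1 and Ung) were above both, as 34.6% were. Against the FLAG:Ctrl RIP alone 11 members were at least 2-fold lower (7.11% of genes kept), and against the IgG RIP alone 15 were (6.94%). The call of lower required a 2-fold shortfall or more from each control RIP and a value under the FLAG:MKRN1 input. That held for 10 members, 31.2% of them, against 5.36% of all genes kept, and no member was called higher, against 1.09%. The 10 were Brca1, Brca2, Rad54l, Atm, Atr, Chek2, Rif1, Fancm, Pms2 and Rad18. Since 1 array enters both differences, they do not count as separate evidence. The members were chosen with earlier results of these data known, so the shares beside all genes kept are no test of the list.

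**Figure D1:**
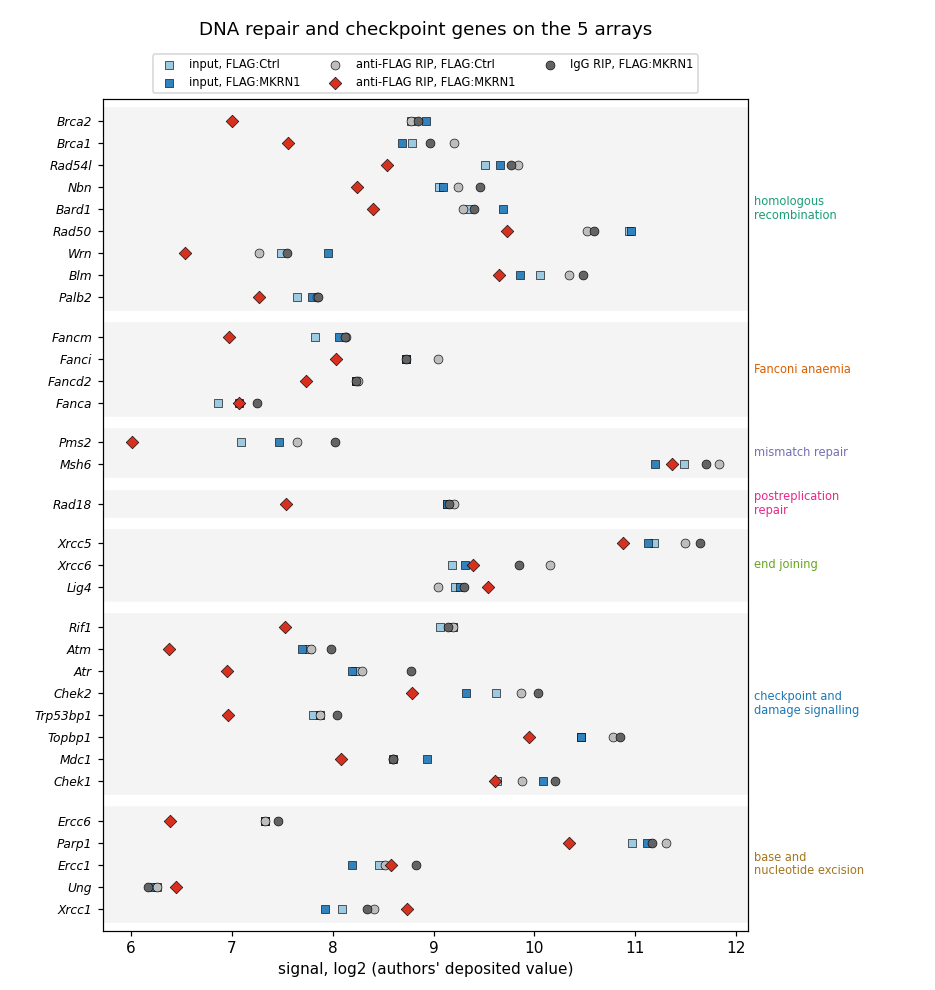
Deposited log2 signal of each member (rows, grouped by pathway) on the 5 arrays; squares are inputs, circles control RIPs and red diamonds the MKRN1-labelled RIP, 1 array each. The diamond is the lowest point for 25 of 32 members, and for Rad18 it stands at 7.54 while the other 4 arrays lie between 9.13 and 9.20.

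Among genes of homologous recombination, all 9 were lowest in the MKRN1-labelled RIP, as 32.6% of genes kept were. Of the 9, 3 were called lower, as 5.36% of genes kept were. Brca2 encodes the mediator that loads the recombinase onto single-stranded DNA. Its signal was 8.78 in the FLAG:Ctrl input, 8.92 in the FLAG:MKRN1 input, 8.78 in the FLAG:Ctrl RIP, 8.85 in the IgG RIP and 7.01 in the MKRN1-labelled RIP. The other 4 arrays therefore sat within 0.14 of each other and the MKRN1-labelled RIP stood apart, 3.42-fold under the FLAG:Ctrl RIP and 3.58-fold under the RIP with IgG. Palb2, whose product bridges BRCA1 and BRCA2, differed far less, at 7.27 beside 7.64 to 7.85 on the other 4 arrays.

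Brca1 encodes a ubiquitin ligase subunit that promotes end resection. It measured 8.79 and 8.69 in the FLAG:Ctrl and FLAG:MKRN1 inputs, 9.20 in the FLAG:Ctrl RIP, 8.97 in the IgG RIP and 7.56 in the MKRN1-labelled RIP, which was 3.12-fold and 2.64-fold below the control RIPs. Bard1, the obligate partner of BRCA1, was at 8.40 against 9.29 to 9.69 on the other arrays, short of 2-fold below the FLAG:Ctrl RIP (-0.88). Its other 2 probe sets differed less, by -0.05 from each control RIP in one and by -0.63 and -0.57 in the other, so the value of Bard1 depends on the probe set read.

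Rad54l, a motor protein gene of strand exchange, was at 9.51 and 9.66 in the inputs, 9.84 in the FLAG:Ctrl RIP, 9.77 in the IgG RIP and 8.53 in the MKRN1-labelled RIP. The break-sensing complex genes Rad50 and Nbn had differences of -0.79 and -0.999 from the FLAG:Ctrl RIP, and of -0.86 and -1.22 from that with IgG. Nbn missed the call by a margin in the third decimal, at 1.999-fold, and its dimmer probe set showed 0.14 and 0.00. The RecQ helicase genes Blm and Wrn differed by -0.69 and -0.73 from the FLAG:Ctrl RIP and by -0.83 and -1.01 from the IgG RIP.

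All 8 checkpoint and signalling genes were lowest in the MKRN1-labelled RIP, beside 32.6% of genes kept. Of the 8, 4 were called lower, beside 5.36% of genes kept. Atm, the kinase gene of the break response, was at 7.76 in the FLAG:Ctrl input, 7.70 in the FLAG:MKRN1 input, 7.79 in the FLAG:Ctrl RIP, 7.99 in the IgG RIP and 6.38 in the MKRN1-labelled RIP. Atr, the kinase gene of the stalled fork response, was at 8.23, 8.19, 8.29, 8.78 and 6.95 in the same order. Both kinase genes thus stood at least 2.37-fold below every other array, and Atr differed more from the IgG RIP (3.55-fold) than from the FLAG:Ctrl RIP (2.52-fold).

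The effector kinase genes differed from each other. Chek2, downstream of ATM, was called lower with 9.62 and 9.32 in the inputs, 9.87 and 10.03 in the FLAG:Ctrl and IgG RIPs and 8.79 in the MKRN1-labelled RIP. Chek1, downstream of ATR, showed only -0.28 and -0.60 from the FLAG:Ctrl and IgG RIPs, and its 9.60 lay beside the 9.63 of the FLAG:Ctrl input. Rif1 and Trp53bp1 encode proteins that together shield broken ends from resection. Rif1 ranged from 9.06 to 9.20 on 4 arrays and was 7.53 in the MKRN1-labelled RIP, 3.17-fold and 3.06-fold below the control RIPs. Trp53bp1 was 1.87-fold and 2.11-fold below them, the first short of the call. Topbp1, the ATR activator gene, differed by -0.83 and -0.90, and Mdc1, the adaptor gene at marked chromatin, by -0.52 from each.

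In the Fanconi pathway the 4 genes spread from no difference to a call. Fancm, the translocase gene that recognises blocked forks, was at 7.83 and 8.06 in the inputs, 8.13 and 8.12 in the FLAG:Ctrl and IgG RIPs and 6.97 in the MKRN1-labelled RIP, 2.23-fold and 2.22-fold lower than those RIPs. Fanci and Fancd2 encode the clamp that is ubiquitinated at crosslinks. Fanci was 2.02-fold below the FLAG:Ctrl RIP but 1.62-fold below the IgG RIP, and Fancd2 1.43-fold and 1.41-fold. Fanca, a core complex gene, had the same value (7.08) in the MKRN1-labelled RIP, its input and the FLAG:Ctrl RIP.

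Such equal values occur across the deposited table: 9 of 32 members, 28.1%, had the same value (within 1e-06) on 2 or more arrays, against 52.8% of genes kept. For Fanca, Fancd2, Fanci and Ercc6 it was 3 arrays. Among these 4 the MKRN1-labelled RIP was 1 of the equal arrays for Fanca alone. Brca2 had equal values in the FLAG:Ctrl input and the FLAG:Ctrl RIP, and Rad18 in both inputs. The narrow range of their other arrays thus includes such equal values.

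The mismatch repair genes differed from each other. Pms2, which encodes a nuclease subunit of the MutL complex, was at 7.09 in the FLAG:Ctrl input, 7.47 in the FLAG:MKRN1 input, 7.65 in the FLAG:Ctrl RIP, 8.02 in the IgG RIP and 6.02 in the MKRN1-labelled RIP. The difference from the IgG RIP, 4.02-fold, was the largest of any member, though the other 4 arrays of Pms2 also spread over 0.93. Msh6, a mismatch recognition gene, was at 11.36 in the MKRN1-labelled RIP, above its input (11.19) and 0.47 and 0.34 below the control RIPs. Rad18, the ubiquitin ligase gene that starts postreplication repair, was 3.16-fold and 3.07-fold below the control RIPs and 3.01-fold below its input.

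None of the 3 end joining genes was called, beside 5.36% of all genes kept, a number too small to tell from that share. Xrcc5 and Xrcc6, which encode the Ku heterodimer that caps broken ends, were 0.61 and 0.76 below the FLAG:Ctrl RIP and 0.75 and 0.46 below the IgG RIP. Against the FLAG:MKRN1 input these differences were -0.24 and 0.08. Lig4, the ligase gene of this pathway, was highest in the MKRN1-labelled RIP, at 9.54 beside 9.04 to 9.30 on the other arrays.

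Excision repair held both directions. Xrcc1, the scaffold gene of single-strand break repair, was highest in the MKRN1-labelled RIP, at 8.73 against 8.10 and 7.92 in the inputs, 8.42 in the FLAG:Ctrl RIP and 8.34 in the IgG RIP. Ung, the uracil glycosylase gene and the dimmest member, was at 6.45 against 6.17 to 6.26. Ercc1, a nuclease subunit gene, lay 0.07 above the FLAG:Ctrl RIP and 0.24 below the IgG RIP. Parp1, the nick sensor gene, and Ercc6, a gene of transcription-coupled repair, lay lower, at -0.95 and -0.94 from the FLAG:Ctrl RIP and -0.81 and -1.07 from the IgG RIP.

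Each gene was given as its score whichever of the 2 control RIP differences was nearer to 0, and a score of 0 if they had opposite signs. By median score the pathways ran from -0.99 for checkpoint genes and -0.99 for the mismatch pair through -0.88 for homologous recombination, -0.59 for the Fanconi genes and -0.46 for end joining to 0.00 for excision repair; Rad18 scored -1.62. The end joining value was -0.16 with quantile normalization and -0.11 with the trend on signal level removed, excision repair was -0.14 with arrays centred, and mismatch repair was -0.34 with the filter at the 75th percentile, which kept Msh6 alone. Their ranges overlapped. Homologous recombination genes ran from -1.78 (Brca2) to -0.57 (Palb2) and checkpoint genes from -1.61 (Rif1) to -0.28 (Chek1), so with these few genes per pathway no order beyond the values is given. Partners in a pathway could lie far apart, as Brca2 and Palb2 did by 1.20 and Atr and Chek1 by 1.06, or close, as Xrcc5 and Xrcc6 did by 0.15.

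**Figure D2:**
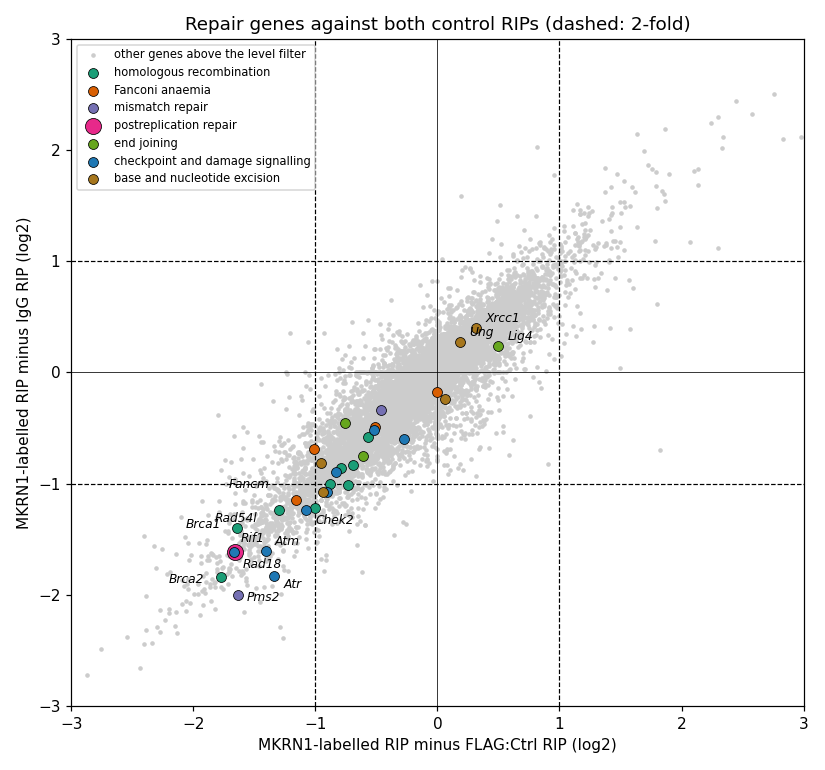
MKRN1-labelled RIP minus FLAG:Ctrl RIP (x axis, log2) and minus IgG RIP (y axis, log2) for members, coloured by pathway, over all other genes above the level filter in grey; 14 genes lie outside the axes, and the large point marks Rad18, which overlaps Rif1. The 10 called members lie below and left of both 2-fold lines, and Xrcc1, Ung and Lig4 are the 3 members above 0 on both axes.

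Relative to the input of the same lysate, 12 members were at least 2-fold lower in the MKRN1-labelled RIP, 37.5% of them against 5.51% of genes kept, and the members' median was -0.81 beside 0.00. Brca2 was lowest at -1.92, followed by Rif1 at -1.67 and Rad18 at -1.59. Bard1, Rad50 and Wrn were at least 2-fold below input without being called, at -1.28, -1.22 and -1.42. On the brightest probe sets of these 3 genes the control RIPs were also below their inputs, by 0.06 to 0.41. The dimmer Bard1 probe sets differed from the FLAG:MKRN1 input by only -0.05 and -0.27. In the dimmest one the FLAG:Ctrl and IgG RIPs were above their inputs, by 0.22 and 0.30. The place of Bard1 among the 12 therefore depends on the probe set read. Chek2 was the 1 called member less than 2-fold below its input (-0.53).

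Both control RIPs were above their inputs for most members, by little. The median was 0.20 in the FLAG:Ctrl RIP and 0.13 in the IgG RIP, beside 0.01 and 0.00 over all genes kept, and both were above input for 21 of 32 members against 36.8% of genes kept. None was 2-fold higher or lower than input in either control RIP, where 0.948% and 1.32% of genes kept were 2-fold higher and 0.374% and 0.461% 2-fold lower. Xrcc6 came closest, at 0.97 in the FLAG:Ctrl RIP. The medians were smaller with quantile normalization, at 0.09 and 0.05 beside 0.03 and 0.03 over all genes kept, and with the trend on signal level removed, at 0.09 in each. This position was not particular to the members. The other repair genes listed below had main medians of 0.15 and 0.13, with both control RIPs above input for 50 of 91.

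How much of a member's distance from the IgG RIP lay below the shared FLAG:MKRN1 input therefore varied. It was 98.3% for Rad18 and 94.6% for Fancm, 72.5% for Pms2 and 67.9% for Atr, and 42.4% for Chek2, 31.9% for Xrcc5 and 24.3% for Blm, where the IgG RIP stood above input by 0.71, 0.51 and 0.63. For Brca2 and Rif1 the IgG RIP was itself just below input, by 0.08 and 0.06.

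**Figure D3:**
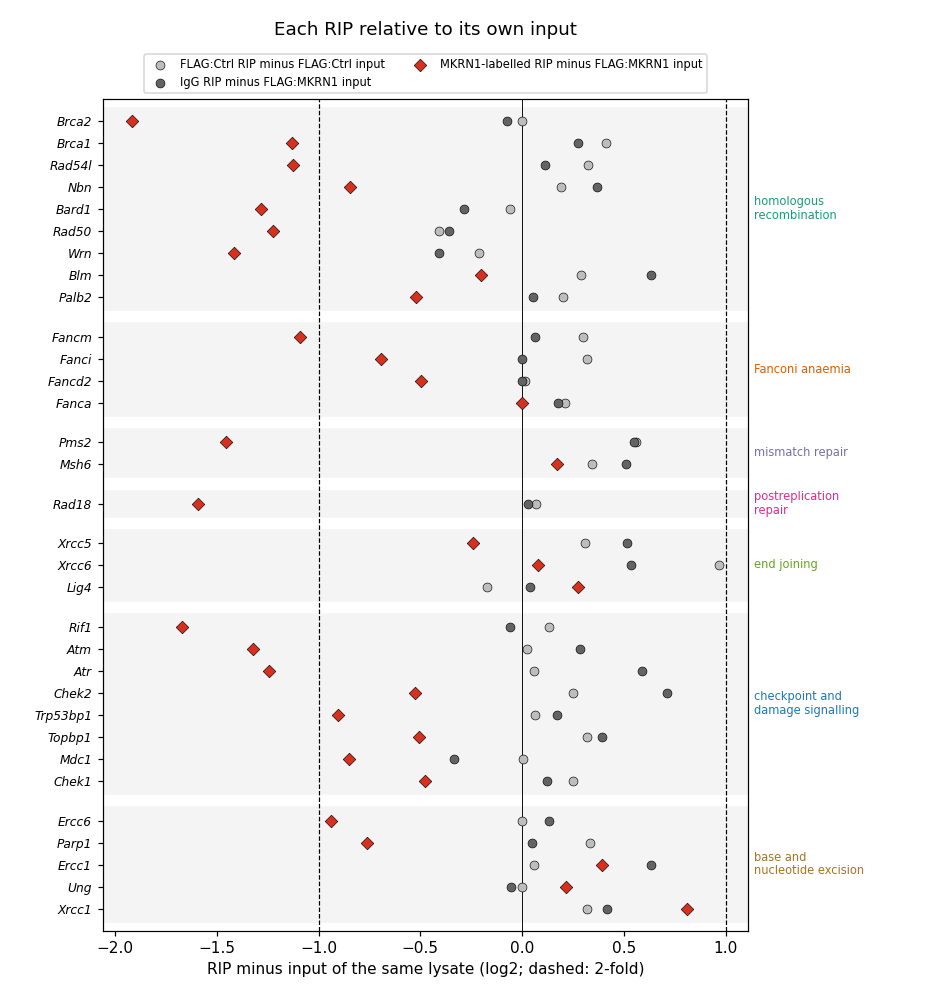
Log2 difference of each RIP from the input of its own lysate for every member (rows, by pathway): grey circles are the FLAG:Ctrl RIP and the IgG RIP, red diamonds the MKRN1-labelled RIP, 1 array each. Diamonds lie left of the 2-fold line at -1 for 12 members, while all circles lie between the 2-fold lines.

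Input levels of the members were nearly the same in the lines. The median difference of the FLAG:MKRN1 from the FLAG:Ctrl input was 0.03, beside 0.00 over all genes kept, and no member reached 2-fold, against 0.878% of genes kept that were higher and 0.791% lower. The extremes were Wrn at 0.47 and Chek2 at -0.30. In such bulk lysates, fewer cells of a type and less RNA per cell cannot be told apart. Between the control RIPs the members differed by a median of -0.07, from -0.49 (Atr) to 0.32 (Fanci).

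Signal level went with part of the difference. Among all genes kept, the brightest 25% had medians of -0.30 and -0.31 from the FLAG:Ctrl and IgG RIPs with 9.74% called lower, and the dimmest 25% 0.12 and 0.11 with 0.278% called lower. The 12 members in the brightest 25% had medians of -0.78 and -0.82, with 2 called. The 14 in the 25% next in brightness, where 8.31% of genes were called lower, had medians of -1.01 and -1.12, with 6 called. In the 25% after that, 5 members had medians of -0.94 and -1.07, with 2 called. All genes kept there had medians of 0.00 and 0.00, with 3.13% called lower. The dimmest 25% held 1 member, Ung, at 0.19 and 0.27 and not called. With the trend on signal level removed, the members' medians were -0.60 and -0.54 and 8 were called lower, 25.0% against 2.90% of genes kept; Rad54l (-0.89) and Chek2 (-0.72) were no longer called. Quantile normalization gave medians of -0.68 and -0.60 and 8 calls, again without Rad54l (-0.96) and Chek2 (-0.79). With arrays centred on their medians, all genes kept had medians of -0.23 and -0.18 from the control RIPs and 15 members were called, 46.9% against 8.42% of genes kept, adding Bard1, Nbn, Topbp1, Trp53bp1 and Ercc6.

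Of 107 other repair genes listed from textbook knowledge, 96 were matched and 91 kept, with medians of -0.25 and -0.33 from the FLAG:Ctrl and IgG RIPs; 9 were called lower, 9.89% against the 5.36% of all genes kept, and none higher. This excess depended on the scaling. With the trend on signal level removed 3 of the 9 were still called, 3.30% of the list against 2.90% of genes kept, and with quantile normalization 3 of the 9, 3.30% against 3.61%. With arrays centred it was 17 genes, 18.7% against 8.42%. Gen1, which encodes a resolvase of recombination junctions, had the lowest score, with 9.15 and 9.14 in the inputs, 8.94 in each control RIP and 6.64 in the MKRN1-labelled RIP. Brip1, the gene of a helicase that binds BRCA1, followed at -1.43 and Ercc3, a TFIIH helicase gene, at -1.37. The others named by score were Smc5 (-1.21), Ercc5 (-1.15), the polymerase zeta subunit gene Mad2l2 (-1.09), the cohesin subunit gene Rad21 (-1.09) and Pms1 (-1.04).

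By pathway, and beside the 5.36% of all genes kept, the other genes called lower were 3 of 23 in homologous recombination, 2 of 22 in excision repair, 2 of 11 in postreplication repair, 1 of 10 in the Fanconi pathway and 1 of 4 in mismatch repair. Of 13 checkpoint and 8 end joining genes none was called, numbers too small to tell from that share. In the checkpoint pathway the members' median score of -0.99 thus stood beside -0.25 in its other genes, and in homologous recombination -0.88 stood beside -0.17. The members and lists were chosen with earlier results of these data known. An effect of that choice on these gaps cannot be told apart from one of the pathway, and neither was tested.

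**Figure D4:**
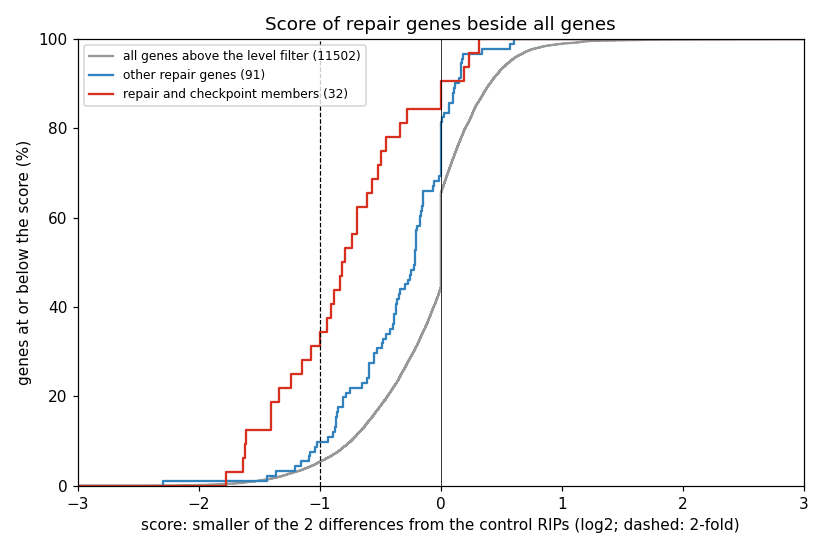
Cumulative share of genes (y axis, percent) at or below each score (x axis, log2) for the 32 members, the 91 other repair genes and all 11502 genes above the level filter. At the dashed 2-fold line the curve of the members is highest, that of the other repair genes lies between, and no member has a score above 0.32.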

How the data were processed

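RNA of 5 samples, grouped by title into 5 groups of 1 array, was analysed. Each probe set has 1 log2 value on each array in the table the authors deposited, from 2.56 to 14.4 with array medians from 5.68 to 5.88. No source used here says how these were corrected for background, summarised or normalized. Per the labels, biotin labelling followed the Affymetrix manual. Precision is limited by the number of arrays.

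Of 34760 probe sets, 21640 have 1 gene symbol in the platform annotation, 1321 several and 11799 none there; 21553 gene IDs matched the RefSeq table of GRCm38.p6, which updated symbols. Per gene the probe set with the highest mean was used, and genes were kept if that mean reached the median over all probe sets (5.76). The call rule was 2-fold against both control RIPs plus a value on the same side of the input, by any size. All 32 members are named, and of the other repair genes the 8 with the largest score among those called. The members and lists were chosen with earlier results of these data known. Scripts used Python 3.11.15 with numpy 2.4.6 and pandas 2.3.3, and the call rule was tested on simulated data. Its noise was sized on the difference between the control RIPs (SD 0.243) and had no trend with signal level. The differences of the MKRN1-labelled RIP from the FLAG:Ctrl and IgG RIPs had SDs of 0.57 and 0.55 over genes kept. The simulation therefore checks the code, not the call rate in these data. Alternatives were 2 rescalings, removal of the trend with signal level (running median over 501 genes), 2 other level filters, the median over probe sets, values raised to the filter, and other call rules. Bins of protein length were planned and not run, since no protein table was used here.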

Additional observations from a re-analysis of the deposited data

Results flagged for a closer look

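The anti-FLAG RIP was compared with the input of the same lysate in each line, and the results here lay below input in FLAG:MKRN1 lysate and above input in FLAG:Ctrl lysate, each by more than 0.243, the SD over genes of the difference between the 2 control RIPs. With 1 array per group the difference between lysates was not tested. The share of all genes kept that meets this rule was not counted, so these members are not shown to be unusual. The SD comes from another comparison and is not an error of a RIP minus its input. Values are log2 differences, FLAG:MKRN1 lysate first.

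Pms2 was at -1.45 and 0.56, Brca1 at -1.13 and 0.41, and Rad54l at -1.12 and 0.32. Fancm was at -1.09 and 0.30 and Fanci at -0.69 and 0.32. Parp1 was at -0.76 and 0.33. Of the checkpoint genes, Chek2 was at -0.53 and 0.25, Topbp1 at -0.51 and 0.32, and Chek1 at -0.48 and 0.25. The 0.25 of Chek1 and of Chek2 lay just past the limit of 0.243. For Chek1 the inputs also differed, the FLAG:MKRN1 input by 0.45 from the FLAG:Ctrl input. Its MKRN1-labelled RIP differed by only -0.28 from the FLAG:Ctrl RIP.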

How the results depend on the processing

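No paired analysis was possible because each group has 1 array, and for the same reason none was left out. A median or count is taken as moved when it differed by over 1.5 times or in sign. Of 145 comparisons of a list result with an alternative, 122 stayed within that and 23 moved. Some of the 122 could not have moved, so the tally does not measure stability. All members lay above the filter on every array, so dropping it or raising values to it left their results unchanged. Only Bard1 and Nbn have more than 1 probe set, so few member results could change with the median over probe sets. The 10 called members had scores of -0.72 or lower under each rescaling and with the trend on signal level removed. Quantile normalization and trend removal each left Rad54l and Chek2 short of the call. The level filters, the median over probe sets and values raised to the filter could not change these scores. Each of the 10 has 1 probe set and lay above the main filter on every array. The 75th percentile filter did remove Atm and Pms2. It kept 26 members with 8 called lower, against 9.05% of genes kept.

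With the trend on signal level removed, the members' medians were -0.54 against IgG and 0.09 for the FLAG:Ctrl RIP against its input. Median scores were -0.11 for end joining, 0.0026 for excision repair and -0.10 for other repair genes, of which 3 were called lower (3.30% against 2.90% of genes kept). With quantile normalization the control RIPs had members' medians of 0.0905 (FLAG:Ctrl) and 0.0542 (IgG) from input, end joining scored -0.16 and other repair genes -0.12, with 3 called (3.30% against 3.61%). With arrays centred, the members' medians were 0.20 for the IgG RIP against input, 0.0156 between inputs and -0.0434 between control RIPs. Excision repair then scored -0.14 and other repair genes -0.42, with 17 called (18.7% against 8.42%). At a 75th percentile filter the control RIPs differed by a median of -0.0363, mismatch repair scored -0.34 and other repair genes -0.36. The median over probe sets gave 0.0107 between inputs.

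At 1.5-fold 21 members were called lower, against 14.4% of genes kept, and at 4-fold 0, against 0.200%. The FLAG:Ctrl RIP alone with the input gave 11 members (34.4% against 6.88% of genes kept), the IgG RIP alone 15 (46.9% against 6.86%), and RIPs taken relative to their inputs 12 (37.5% against 5.31%), of which 9 were among the 10. The cause of these shifts was not tested.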
